A study of Mus musculus with 8 samples.

Results

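The 9 genes described here form the core of retinoic acid handling and response in these cells: the receptors Rara, Rarb, Rarg and Rxra, the clearance enzymes Cyp26a1 and Cyp26b1, the binding proteins Crabp1 and Crabp2, and the retinaldehyde reductase Dhrs3. They were taken by gene symbol from a table of 21812 symbols, and all 9 were listed and passed the filter on low counts that left 14229 genes for testing. Total RNA was sequenced from mouse embryonic stem cells grown under conditions meant to induce primitive endoderm, the layer of the blastocyst that gives rise to the yolk sac endoderm. The 4 groups had 2 libraries each: Virma cKO, Virma WT, Mettl3 cKO and Mettl3 WT, where cKO is the label for a conditional knockout and WT that for wild type. Mettl3 and Virma encode the catalytic subunit and a scaffold of the complex that writes N6-methyladenosine on RNA. The labels name the same medium for all 4 groups and give neither the recombinase, the deleted exons nor the clones, and they do not say that replicates were separate cultures, so p-values measure the spread between these libraries, which may be technical.

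Retinoic acid is made from retinol in 2 oxidation steps, first to retinaldehyde and then to the acid, and DHRS3 works against the first step by reducing retinaldehyde back to retinol. In the cell the acid is carried by CRABP proteins, binds RAR receptors that sit on DNA together with RXR, and is oxidised and cleared by CYP26 enzymes. Several of these genes, among them Rarb and Cyp26a1, are known targets of the receptors and serve as gauges of the signal, and retinoic acid is a classical inducer of extraembryonic endoderm in cultured pluripotent and embryonal carcinoma cells.

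Rarb and Cyp26a1 are shown as sequence because they were the members whose promoter window held a direct repeat of the receptor half-site. The search took as half-site any of 4 spellings, AGGTCA as the first of them, AGTTCA as another, then also GGTTCA and finally the spelling GGGTCA, in tandem with 5 bases between them, on both strands of the RefSeq windows on GRCm38.p6, each from 250 bases before to 50 bases after a gene's start. Of the 9 genes, 8 had a window, and Crabp2 is named only. The repeat was present in 2 of these 8 genes, against 0.115% of all 27025 genes and 0.0974% of all 32851 windows. The genes were chosen as pathway genes, and Rarb and Cyp26a1 are known receptor targets, so these shares are no test of enrichment. Repeats with 1 or 2 bases between the half-sites stood in 0.222% and 0.268% of windows and in none of the 8 genes. The 250 bases before each start follow in the direction of the gene, with the half-sites in capitals, for Rarb at chr14:16575477-16575726 on the minus strand and for Cyp26a1 at chr19:37697558-37697807 on the plus strand.
Rarb: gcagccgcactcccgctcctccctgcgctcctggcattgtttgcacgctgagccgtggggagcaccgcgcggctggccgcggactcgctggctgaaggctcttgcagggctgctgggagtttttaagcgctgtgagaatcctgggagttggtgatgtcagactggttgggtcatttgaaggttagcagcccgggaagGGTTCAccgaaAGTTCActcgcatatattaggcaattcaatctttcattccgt
Cyp26a1: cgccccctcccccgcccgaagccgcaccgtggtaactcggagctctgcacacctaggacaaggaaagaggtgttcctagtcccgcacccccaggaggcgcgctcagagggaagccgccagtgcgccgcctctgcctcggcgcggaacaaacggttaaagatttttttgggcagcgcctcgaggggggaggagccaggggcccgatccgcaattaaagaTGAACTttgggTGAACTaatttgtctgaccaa
The Rarb repeat, GGTTCAccgaaAGTTCA, lay 53 to 37 bases before the start, and the Cyp26a1 repeat lay 32 to 16 bases before it and reads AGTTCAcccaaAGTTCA on the opposite strand. A match is a string of letters and was not tested for binding in these cells.

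Library totals lay between 15568628 and 17306227 counts as tabulated. A normalised value of 1 CPM (normalised counts scaled to library size) thus stood for 16.45 to 16.77 tabulated counts. Among the other genes listed below, Mettl3 WT counts up to 14 came in steps. They were 0, 3, 5, 8, 10 or 13 in replicate 1 and 0, 3, 6, 8, 11 or 14 in replicate 2. Mettl3 WT had counts in 15452 and 15415 genes, and each other library in 16476 to 17086. Whether the table was scaled before deposit was not tested, and 1 CPM may stand for fewer reads in Mettl3 WT. Taken as unscaled reads, the Virma cKO libraries differed by less than sampling noise over 14680 genes (chi-square of 0.914 for each degree of freedom). These libraries were counted as 1 sample, so their values carry no SD. If the table was scaled, this chi-square does not measure sampling noise. Virma, the gene the line is named after, was at 70.8 and 73.8 CPM in Virma cKO, against 93.3 and 88.8 CPM in Virma WT (log2 fold change −0.33 ± 0.06 SE, edgeR adjusted p = 0.000102). Mettl3 was lower in the same libraries, at 34.1 and 33.6 CPM in Virma cKO, against 45.8 and 44.3 CPM in Virma WT (−0.42 ± 0.09, edgeR adjusted p = 0.000232), and 26.1% of all tested genes were called lower in that comparison. Mettl3 was at 35.4 and 33.9 CPM in libraries labelled Mettl3 cKO, against 35.7 and 35.2 CPM in Mettl3 WT (−0.04 ± 0.07, edgeR adjusted p = 0.695). The whole-gene count therefore does not bear out the label Mettl3 cKO, and for Virma it shows a partial fall that was not particular to that gene. Such a count covers all exons, and the removed exons are not named in the labels. Directions below for Mettl3 cKO are those of libraries so labelled.

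In the Virma line 6 of the 9 genes changed: Rxra, Cyp26b1, Crabp1 and Dhrs3 were higher in Virma cKO and Cyp26a1 and Crabp2 lower. This stands beside 52.3% of all tested genes called in that comparison (26.2% higher and 26.1% lower) by edgeR's quasi-likelihood test at a Benjamini-Hochberg adjusted p under 0.05. In the Mettl3 line all 9 changed, beside 55.1% of all tested genes (27.1% higher and 28% lower): Rara, Rarg, Rxra, Crabp1 and Dhrs3 were higher in libraries labelled Mettl3 cKO, and Rarb, Cyp26a1, Cyp26b1 and Crabp2 lower. Rxra, Crabp1 and Dhrs3 were thus higher and Cyp26a1 and Crabp2 lower in both lines, while Cyp26b1 was called in opposite directions. The median log2 fold change of the 9 genes was 0.10 in the Virma line and 0.28 in the Mettl3 line, against 0.02 and 0.01 for all tested genes. In bulk RNA, fewer cells of a type and less RNA per cell cannot be told apart.

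**Figure D1:**
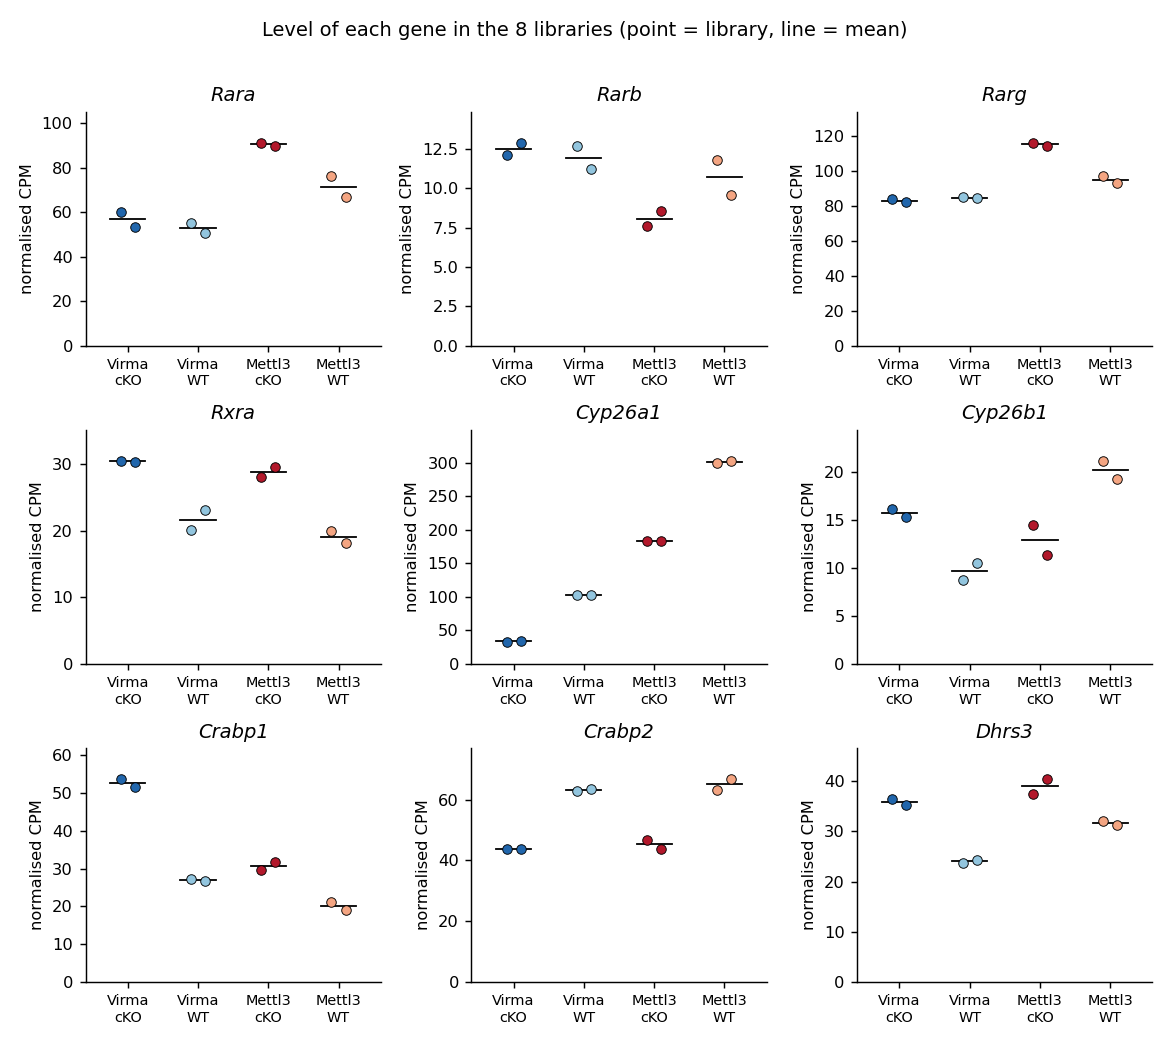
Normalised CPM of each of the 9 genes (vertical axes, from 0) in the 4 groups, Virma cKO, Virma WT, Mettl3 cKO and Mettl3 WT; each point is a library and each line the mean of 2 libraries. Cyp26a1 runs from 32.9 CPM in a Virma cKO library to 303 CPM in a Mettl3 WT library, while Rarg stays between 81.9 and 116 CPM.

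Cyp26a1, the main retinoic acid clearing enzyme of the early embryo, showed the widest range of the 9 genes. It was at 32.9 and 33.3 CPM in the Virma cKO libraries, against 102 and 103 CPM in Virma WT. Every Virma cKO value lay below every Virma WT value, and the level was 3.1-fold lower (log2 fold change −1.63 ± 0.06 SE, edgeR adjusted p = 3.06e-16). In the libraries labelled Mettl3 cKO it was at 183 and 183 CPM, against 299 and 303 CPM in Mettl3 WT, again without overlap. That is 1.64-fold lower (−0.72 ± 0.03, edgeR adjusted p = 2.14e-14). The fall in the Virma line exceeded that in the Mettl3 line by 0.92 ± 0.07 on the log2 scale (edgeR adjusted p of the difference 5.33e-10, where 39.1% of all tested genes were called).

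Cyp26b1, a second clearance enzyme that protects tissues such as the embryonic hindbrain and gonad from the acid, went opposite ways. It was at 16.2 and 15.3 CPM in Virma cKO, against 8.77 and 10.5 CPM in Virma WT, 1.63-fold higher without overlap (0.71 ± 0.16, edgeR adjusted p = 0.000496). The libraries labelled Mettl3 cKO had 14.5 and 11.4 CPM, against 21.2 and 19.3 CPM in Mettl3 WT, 1.56-fold lower without overlap (−0.65 ± 0.12, edgeR adjusted p = 5.94e-05). The difference of the 2 effects was 1.35 ± 0.20 on the log2 scale (edgeR adjusted p = 5.6e-06), the largest among the 9 genes. Cyp26c1, the remaining member of the enzyme family, had 0 to 11 counts per library and was not tested.

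Scaled to exon length, Cyp26a1 made up nearly all of the measured clearance enzyme RNA except in Virma cKO. The sum of Cyp26a1 and Cyp26b1 was 19.6 and 19.6 CPM per kilobase in Virma cKO and 53.1 and 53.8 CPM per kilobase in Virma WT. It was 95.2 and 94.6 CPM per kilobase in libraries labelled Mettl3 cKO and 155 and 156 CPM per kilobase in Mettl3 WT. Cyp26b1 held 15.5% and 14.6% of this sum in Virma cKO, against 3.09% and 3.65% in Virma WT. Its share was 2.84% and 2.26% in libraries labelled Mettl3 cKO and 2.56% and 2.31% in Mettl3 WT, and those groups overlapped.

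**Figure D2:**
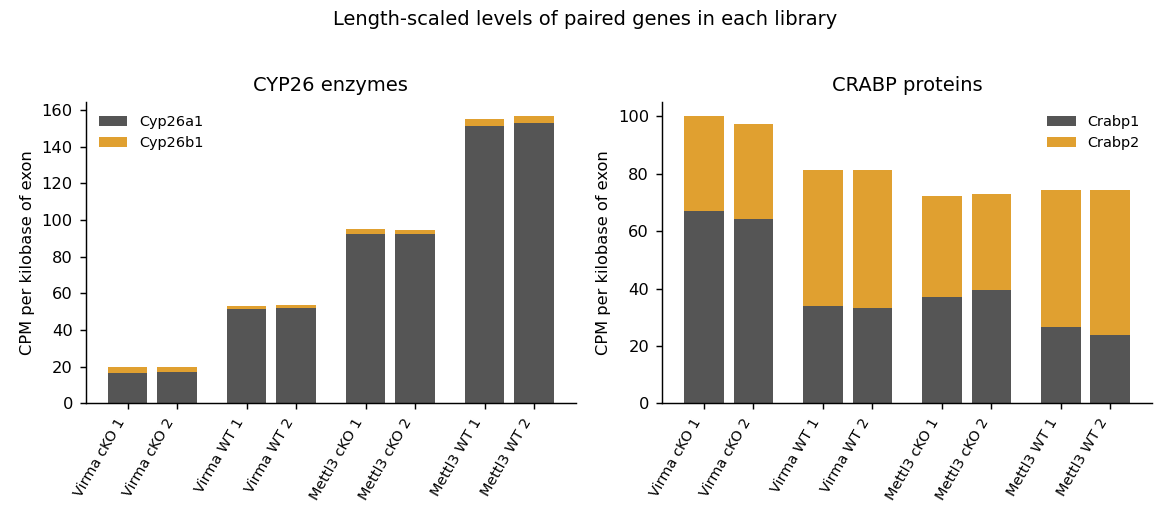
Length-scaled level (CPM per kilobase of exon, stacked bars from 0) of Cyp26a1 with Cyp26b1 on the left and of Crabp1 with Crabp2 on the right, 1 bar for each library, ordered Virma cKO, Virma WT, Mettl3 cKO and Mettl3 WT. The enzyme sum is lowest in Virma cKO, at 19.6 CPM per kilobase, and the Crabp1 part of the binding protein sum is larger in cKO than in WT libraries of both lines.

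The binding proteins moved apart in both lines, Crabp1 up and Crabp2 down. CRABP1 holds the acid in the cytosol and is linked to its breakdown, and CRABP2 passes it to the receptors in the nucleus. Crabp1 was at 53.8 and 51.6 CPM in Virma cKO, against 27.2 and 26.7 CPM in Virma WT, 1.95-fold higher (0.97 ± 0.09, edgeR adjusted p = 2.96e-09). It was at 29.7 and 31.8 CPM in libraries labelled Mettl3 cKO, against 21.2 and 19 CPM in Mettl3 WT, 1.53-fold higher (0.61 ± 0.08, edgeR adjusted p = 1.64e-06). Neither pair of groups overlapped. The rise was larger in the Virma line by 0.36 ± 0.12 on the log2 scale (edgeR adjusted p = 0.0259), a call that was lost with DESeq2 (adjusted p = 0.152), with both Virma pairs counted as 1 sample each (0.0818) and without any one of 4 libraries: Virma WT replicate 1 (0.37, adjusted p = 0.0686) or 2 (0.34, 0.0963), Mettl3 cKO replicate 1 (0.31, 0.11) and Mettl3 WT replicate 1 (0.27, 0.0562). With a trend across genes with length and GC content taken out, the Crabp1 rise in libraries labelled Mettl3 cKO was 0.26 (edgeR adjusted p = 0.0131) and the difference 0.71 (8.3e-05).

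Crabp2 was at 43.6 and 43.8 CPM in Virma cKO, against 62.8 and 63.6 CPM in Virma WT, 1.45-fold lower (−0.54 ± 0.08, edgeR adjusted p = 2.11e-06). The libraries labelled Mettl3 cKO had 46.7 and 43.9 CPM, against 63.2 and 66.9 CPM in Mettl3 WT, 1.44-fold lower (−0.52 ± 0.06, edgeR adjusted p = 9.16e-08). In both lines the groups were separate, and the 2 effects differed by −0.01 ± 0.10 (95% interval −0.21 to 0.19, edgeR adjusted p = 0.942). Per kilobase, Crabp1 held 67.1% and 66% of the Crabp1 and Crabp2 sum in Virma cKO, against 41.6% and 40.9% in Virma WT. Its share was 51.2% and 54.4% in libraries labelled Mettl3 cKO, against 35.6% and 31.9% in Mettl3 WT. Per kilobase, Crabp1 thus exceeded Crabp2 in every cKO library and in no WT library.

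Dhrs3, which lowers the supply of the acid by returning retinaldehyde to retinol, was higher in both lines. It was at 36.5 and 35.3 CPM in Virma cKO, against 23.7 and 24.3 CPM in Virma WT, 1.49-fold higher (0.58 ± 0.09, edgeR adjusted p = 1.41e-05). It was at 37.5 and 40.5 CPM in libraries labelled Mettl3 cKO, against 32.1 and 31.3 CPM in Mettl3 WT, 1.23-fold higher (0.30 ± 0.07, edgeR adjusted p = 0.00137). The groups did not overlap in either line. The 2 rises differed by 0.28 ± 0.12 (edgeR adjusted p = 0.0683). Once the length and GC trend was taken out, the call in the Mettl3 line was lost (0.17, adjusted p = 0.051) and the difference was called (0.43, adjusted p = 0.00559), as it was when scaled by total count (0.38, adjusted p = 0.014).

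Among the receptors, Rxra, the shared partner of the RAR proteins and of other nuclear receptors, was the one that rose in both lines. It was at 30.5 and 30.3 CPM in Virma cKO, against 20.1 and 23.1 CPM in Virma WT, 1.41-fold higher (0.49 ± 0.11, edgeR adjusted p = 0.000449). It was at 28.1 and 29.5 CPM in libraries labelled Mettl3 cKO, against 20 and 18.2 CPM in Mettl3 WT, 1.51-fold higher (0.59 ± 0.09, edgeR adjusted p = 6.92e-06). Both pairs of groups were separate, and the effects differed by −0.10 ± 0.14 (95% interval −0.39 to 0.19, edgeR adjusted p = 0.623). Rxrb, a second RXR gene, had the higher mean per kilobase in all 4 groups (8.16 to 11.9 CPM, against 3.5 to 5.57 for Rxra). It was at 33.3 and 31.5 CPM in Virma cKO, against 37.5 and 42.2 CPM in Virma WT (−0.30 ± 0.10, edgeR adjusted p = 0.0113). That call was lost without Virma WT replicate 2 (−0.21, adjusted p = 0.152), by total count scaling (−0.17, 0.139) and with DESeq2 (0.0598). In the Mettl3 line the Rxrb value was 0.11 ± 0.07 on the log2 scale (edgeR adjusted p = 0.216). Rxrg had 3 to 11 counts per library and was not tested.

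Rara and Rarg, the receptors present in most early embryonic cells, were called in the Mettl3 line. Rara was at 91.2 and 89.8 CPM in libraries labelled Mettl3 cKO, against 76 and 66.9 CPM in Mettl3 WT, 1.27-fold higher (0.34 ± 0.06, edgeR adjusted p = 2.7e-05). Rarg was at 116 and 114 CPM in those libraries, against 96.7 and 92.9 CPM in Mettl3 WT, 1.21-fold higher (0.28 ± 0.04, edgeR adjusted p = 1.13e-05). These groups were separate, but neither gene passed once that trend was taken out (Rara 0.14, adjusted p = 0.0608, and Rarg 0.08, adjusted p = 0.127).

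In the Virma line Rara was at 60.2 and 53.2 CPM in Virma cKO, against 55 and 50.7 CPM in Virma WT, which overlapped (0.10 ± 0.08, 95% interval −0.06 to 0.26, edgeR adjusted p = 0.31). Scaled by total count (0.23, adjusted p = 0.0188) or without Virma cKO replicate 2 (0.19, adjusted p = 0.0485), Rara passed the threshold. Rarg was at 83.9 and 81.9 CPM in Virma cKO, against 84.8 and 84.2 CPM in Virma WT (−0.03 ± 0.06, 95% interval −0.15 to 0.09, edgeR adjusted p = 0.685), and its sign turned under total count scaling (0.10). The 2 effects on Rarg differed by −0.31 ± 0.07 (edgeR adjusted p = 0.00151), which missed the threshold once the length and GC trend was removed (−0.15, adjusted p = 0.115). Those on Rara differed by −0.24 ± 0.10 (edgeR adjusted p = 0.0553).

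Rarb, a receptor gene directly induced by the acid, had the lowest length-scaled level of the 3 RAR genes. It was at 12.1 and 12.9 CPM in Virma cKO, against 12.7 and 11.2 CPM in Virma WT, which overlapped (0.07 ± 0.16, 95% interval −0.26 to 0.39, edgeR adjusted p = 0.752). It was at 7.58 and 8.53 CPM in libraries labelled Mettl3 cKO, against 11.8 and 9.58 CPM in Mettl3 WT, without overlap (−0.41 ± 0.14, edgeR adjusted p = 0.018). That call was lost without Mettl3 cKO replicate 1 (−0.32, adjusted p = 0.159), without Mettl3 WT replicate 1 (−0.25, 0.13) and with DESeq2 (0.109). The Rarb count is also uncertain because 34.1% of its exon bases overlap exons of Top2b, a topoisomerase gene on the other strand, and the labels do not give the strand setting of the counting. Top2b was at 77.3 and 72.6 CPM in libraries labelled Mettl3 cKO, against 96.7 and 90.7 CPM in Mettl3 WT (−0.32 ± 0.05, edgeR adjusted p = 9.37e-06), and its part in the Rarb value was not tested.

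The RAR sum, per kilobase, was 35.8 and 33.9 CPM per kilobase in Virma cKO and 34.9 and 33.5 CPM per kilobase in Virma WT, which overlapped. It was 49.6 and 49 CPM per kilobase in libraries labelled Mettl3 cKO, above the 42.3 and 38.9 CPM per kilobase in Mettl3 WT. Rarg gave 53.6% to 59% of the sum in every library and Rarb 2.9% to 7.23%.

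**Figure D3:**
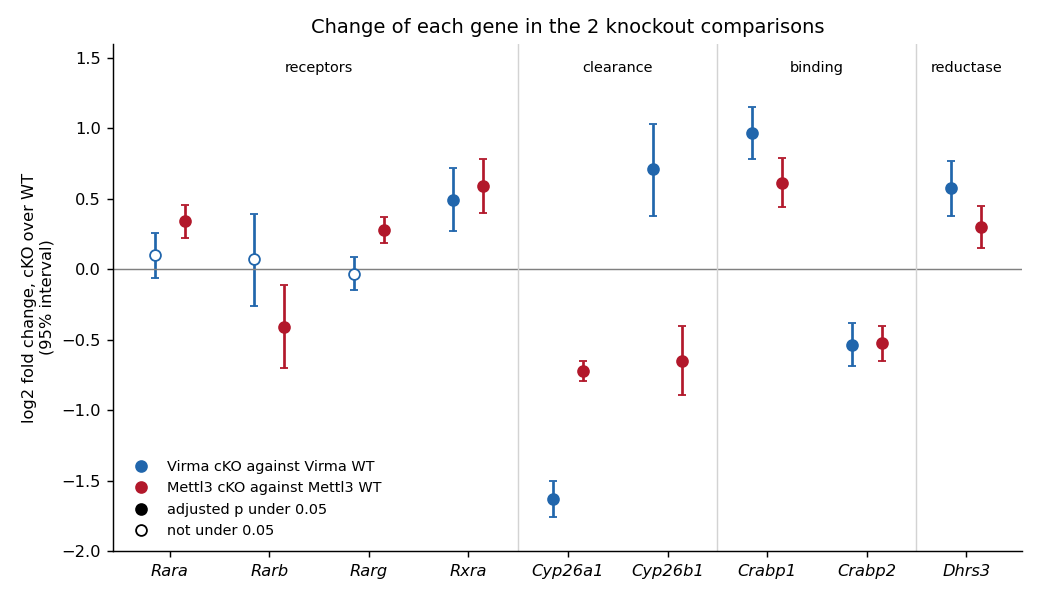
Log2 fold change of cKO over WT with its 95% interval (vertical axis) for the 9 genes in the Virma comparison (blue) and the Mettl3 comparison (red); filled points have an edgeR adjusted p under 0.05. Rara, Rarb and Rarg are open in the Virma comparison, and Cyp26b1 is on opposite sides of 0, at 0.71 and −0.65.

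The WT libraries of the 2 lines were not alike in these genes, and they are the controls of the cKO against WT comparisons. Of the 9 genes 6 differed between Virma WT and Mettl3 WT, beside 47.6% of all tested genes (25.4% higher and 22.2% lower in Virma WT). Cyp26a1 was 2.94-fold lower in Virma WT, at 102 and 103 CPM against 299 and 303 CPM in Mettl3 WT (−1.56 ± 0.04, edgeR adjusted p = 5.36e-20). Cyp26b1 was 2.1-fold lower in Virma WT (−1.07 ± 0.12, edgeR adjusted p = 1.51e-07). Rara (−0.44), Dhrs3 (−0.40) and Rarg (−0.17) were also lower in Virma WT and Crabp1 higher (0.42), with edgeR adjusted p from 3.81e-06 to 0.00514; with the length and GC trend removed Rarg did not pass (−0.11, 0.0589). Rarb (0.16, 0.34), Rxra (0.17, 0.138) and Crabp2 (−0.04, 0.572) did not pass the same test.

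The order of the 4 groups therefore differed from gene to gene. Cyp26a1 was highest in Mettl3 WT, followed by Mettl3 cKO, Virma WT and Virma cKO, and no neighbours in that order overlapped. Cyp26b1 ran from Mettl3 WT through Virma cKO and Mettl3 cKO to Virma WT, also without overlap. The 2 highest groups were Virma cKO and then Mettl3 cKO for Rxra and Crabp1, and Mettl3 cKO and then Virma cKO for Dhrs3. Crabp2 was highest in Mettl3 WT and Virma WT, which overlapped, and lower in Mettl3 cKO and Virma cKO, which were separate by a narrow margin (43.9 against 43.8 CPM). Rara and Rarg were highest in Mettl3 cKO and then Mettl3 WT; Virma cKO and Virma WT overlapped for Rara and lay within 81.9 to 84.8 CPM for Rarg.

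Set against Virma WT instead of its own WT, the group labelled Mettl3 cKO had more Cyp26a1 (0.84, edgeR adjusted p = 8.32e-15) and more Cyp26b1 (0.43, 0.00828), so both turned direction. Under that control the log2 fold change was 0.78 for Rara, −0.56 for Rarb, 0.45 for Rarg and 0.42 for Rxra. It was 0.19 for Crabp1 (adjusted p = 0.0469), −0.48 for Crabp2 and 0.70 for Dhrs3. The direction of Cyp26a1 and Cyp26b1 in the group labelled Mettl3 cKO thus depends on which WT group is the control.

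Per kilobase, Cyp26a1 was the most abundant of the 9 transcripts in 3 groups, with means of 51.6 CPM per kilobase in Virma WT, 92.5 in Mettl3 cKO and 152 in Mettl3 WT. In Virma cKO it ranked below 3 others, at 16.7 CPM per kilobase, behind Crabp1 (65.7), Crabp2 (33) and Rarg (19.5). The least abundant was Rarb in Virma cKO (2.37), Mettl3 cKO (1.53) and Mettl3 WT (2.03), and Cyp26b1 in Virma WT (1.80).

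Across the 8 libraries the nearest pair among the 9 genes was Rara and Rarg, with a root mean square difference of 0.139 between their log2 CPM centred on each gene's mean. Among 10881 candidate genes, those nearest to Cyp26a1 by the same measure were Rhox5 (0.0996), Tspan8 (0.2) and Gstp2 (0.226), whose reads a near-identical paralogue may share. The SD of Cyp26a1 itself over the libraries was 1.27 on that scale. The nearest gene was Socs6 for Crabp1 (0.0523), Sec24c for Crabp2 (0.0459), Qsox2 for Dhrs3 (0.037), B9d1 for Rxra (0.0459) and Fkbp14 for Cyp26b1 (0.133). For Rara it was Zfp775 (0.0405), for Rarb Vps13c (0.0565) and for Rarg Tmem134 (0.0252). These values describe the libraries and carry no test.

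Markers of other cell states moved with the same groups. Primitive endoderm markers summed to 2464 to 2491 CPM in Virma cKO, against 12810 to 12870 CPM in Virma WT, and 15 of 15 were lower. Their sum was 10140 to 10200 CPM in libraries labelled Mettl3 cKO, against 15740 to 15800 CPM in Mettl3 WT, with 12 of 15 lower and none higher. None of the 15 was at 0 in any group. Of all tested genes 26.1% were lower in Virma cKO and 28% in libraries labelled Mettl3 cKO. Gata6, which starts the primitive endoderm programme, was at 12.3 and 13.4 CPM in Virma cKO and 110 and 107 CPM in Virma WT. It was at 95.9 and 90.5 CPM in libraries labelled Mettl3 cKO and 159 and 147 CPM in Mettl3 WT. Cyp26a1 and Crabp2 were thus lower where these markers were lower within each line. Crabp2 fell alike in the Virma and Mettl3 lines (−0.54 and −0.52), while the median of these markers was −2.32 and −0.54. Between the WT groups Cyp26a1 differed by 2.94-fold and Crabp2 did not pass (−0.04, edgeR adjusted p = 0.572). The marker sum was 12810 to 12870 CPM in Virma WT and 15740 to 15800 CPM in Mettl3 WT. In Virma WT 9 of 15 markers were lower and 3 higher, beside 22.2% and 25.4% of all tested genes.

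Fibroblast markers, chosen for feeder cells or mesenchyme, moved the other way. They summed to 1100 to 1115 CPM in Virma cKO, against 473.6 to 475.3 CPM in Virma WT, with 12 of 12 tested markers higher. They summed to 356.7 to 359.4 CPM in libraries labelled Mettl3 cKO, against 183.1 to 189.9 CPM in Mettl3 WT, with 11 of 12 higher. Of all tested genes 26.2% were higher in Virma cKO and 27.1% in libraries labelled Mettl3 cKO. Between the WT groups 11 of 12 fibroblast markers were higher and 1 lower in Virma WT, beside 25.4% and 22.2% of all tested genes. Col1a1, the main collagen of fibroblasts, was at 421 and 407 CPM in Virma cKO and 170 and 168 CPM in Virma WT, while S100a4 had at most 1 count in any library. Rxra, Crabp1 and Dhrs3 were higher where these markers were higher within each line. Between the WT groups Crabp1 was higher in Virma WT as well (0.42, edgeR adjusted p = 0.000305), but Dhrs3 was lower (−0.40, adjusted p = 0.000205) and Rxra did not pass (0.17, adjusted p = 0.138). The part of either marker list in the values of the 9 genes was not tested.

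Other lists moved less uniformly. Pluripotency markers were higher for 2 and lower for 8 of 12 in Virma cKO, where they summed to 1531 to 1551 CPM, against 2461 to 2499 CPM in Virma WT. In libraries labelled Mettl3 cKO they were higher for 5 and lower for 6 and summed to 2228 to 2279 CPM, against 2430 CPM in both Mettl3 WT libraries. Trophectoderm markers were higher for 3 and lower for 3 of 9 in Virma cKO, and higher for 3 and lower for 4 in libraries labelled Mettl3 cKO. Neuroectoderm markers summed to 53.24 to 69.36 CPM in all libraries, with 2 of 7 called in the Virma line and 1 in the Mettl3 line. Mesoderm and streak markers summed to 8.633 to 18.89 CPM, with 2 of 5 lower in Virma cKO and 2 higher in libraries labelled Mettl3 cKO. Visceral endoderm markers were lower for 4 of 6 in Virma cKO (13.76 and 12.89 CPM, against 85.88 and 91.32 CPM in Virma WT) and for 1 of 6 in libraries labelled Mettl3 cKO. Of all tested genes 52.3% were called in the Virma line and 55.1% in the Mettl3 line. The called shares of these lists, Virma line first, were 83.3% and 91.7% for pluripotency and 66.7% and 77.8% for trophectoderm. They were 28.6% and 14.3% for neuroectoderm, 40% in both for mesoderm and streak, and 66.7% and 16.7% for visceral endoderm.

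Genes upstream of the acid, which take up, store and synthesise it, changed in both directions. Of 19 listed, 14 were tested; in Virma cKO 3 were higher and 5 lower, with a median log2 fold change of 0.03, and in libraries labelled Mettl3 cKO 4 were higher and 3 lower, with a median of 0.09. The called shares, 57.1% in Virma cKO and 50% in libraries labelled Mettl3 cKO, were near the 52.3% and 55.1% of all tested genes. Scaled by total count the Virma split was 3 higher and 3 lower. Rdh10, the main retinol dehydrogenase of the embryo, was at 13.3 and 11.2 CPM in Virma cKO and 10.9 and 9.72 CPM in Virma WT (0.24 ± 0.16, edgeR adjusted p = 0.223). It was at 6.98 and 6.84 CPM in libraries labelled Mettl3 cKO and 8.39 and 6.59 CPM in Mettl3 WT, which overlapped (−0.12 ± 0.16, edgeR adjusted p = 0.547). Aldh1a2, the main retinaldehyde dehydrogenase of the early embryo, stayed between 1.98 and 4.65 CPM in all libraries. Its fall in Virma cKO passed narrowly (−0.68 ± 0.29, edgeR adjusted p = 0.0499), and without Virma WT replicate 1 (adjusted p = 0.0892) or 2 (0.286) and with DESeq2 (0.246) it did not pass.

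Rdh14 was higher in both lines, by 1.08 ± 0.20 in Virma cKO (edgeR adjusted p = 6.46e-05) and 0.49 ± 0.16 in libraries labelled Mettl3 cKO (0.0117). The second of these did not pass without Mettl3 cKO replicate 1 (0.37, adjusted p = 0.152) or with DESeq2 (0.126). Adh5 was lower in both lines (−0.57 ± 0.05 in the Virma and −0.20 ± 0.04 in the Mettl3 comparison, edgeR adjusted p = 7.18e-10 and 0.000122). Dhrs4 rose by 0.58 ± 0.10 and Rdh11 fell by 0.37 ± 0.05 in libraries labelled Mettl3 cKO (edgeR adjusted p = 4.21e-05 and 3.55e-06). Neither passed with Virma WT as control (Dhrs4 0.16, adjusted p = 0.162, and Rdh11 0.03, adjusted p = 0.622). The 4 higher genes of the Mettl3 comparison include Dhrs9, which had 5 and 3 counts in those libraries and 0 in both Mettl3 WT libraries.

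Fabp5, a fatty acid binding protein that can also carry the acid, was at 16.5 and 17.9 CPM in Virma cKO, against 27.2 and 28.7 CPM in Virma WT (−0.70 ± 0.11, edgeR adjusted p = 6.13e-06). It was at 41.8 and 41.8 CPM in libraries labelled Mettl3 cKO, against 43.5 and 47.4 CPM in Mettl3 WT (−0.12 ± 0.07, edgeR adjusted p = 0.138). The 2 effects differed by −0.58 ± 0.13 (edgeR adjusted p = 0.000826).

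The cofactors that receptors recruit, coactivators and corepressors alike, were called in opposite directions in the 2 lines. Of 11 tested, 6 were higher and none lower in Virma cKO (median 0.21). In libraries labelled Mettl3 cKO 7 were lower and none higher (median −0.18). The called shares, 54.5% and 63.6%, stand beside 52.3% and 55.1% of all tested genes. In those directions 26.2% and 28% of all tested genes were called. The difference itself was called for 9 of 11, all higher in the Virma line (median 0.39), beside 17.9% of all tested genes called in that direction. Scaled by total count, 10 were higher and none lower in Virma cKO, and 1 was higher and 7 lower in libraries labelled Mettl3 cKO. Nrip1, a corepressor that binds the receptors when the acid is present, was at 124 and 130 CPM in Virma cKO, against 85.4 and 84.6 CPM in Virma WT (0.58 ± 0.06, edgeR adjusted p = 4.56e-09). It was at 56.7 and 55.2 CPM in libraries labelled Mettl3 cKO, against 80.1 and 81.4 CPM in Mettl3 WT (−0.53 ± 0.05, edgeR adjusted p = 5.73e-09). The difference was 1.11 ± 0.08 (edgeR adjusted p = 4.07e-11).

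Ep300, a histone acetyltransferase that serves as coactivator, showed the same pattern, with 286 and 286 CPM in Virma cKO, against 216 and 211 CPM in Virma WT (0.42 ± 0.04, edgeR adjusted p = 5e-09). It had 142 and 140 CPM in libraries labelled Mettl3 cKO, against 168 and 167 CPM in Mettl3 WT (−0.25 ± 0.04, edgeR adjusted p = 3.54e-06). Its paralogue Crebbp rose in Virma cKO (0.46 ± 0.06, edgeR adjusted p = 4.24e-07), as did the coactivator Ncoa1 (0.38 ± 0.13, 0.0132); without Virma WT replicate 2 the Ncoa1 value was 0.30 (adjusted p = 0.125). The corepressor Ncor1 and its partner Tbl1xr1 fell in libraries labelled Mettl3 cKO (−0.32 ± 0.03 and −0.50 ± 0.06, edgeR adjusted p = 5.56e-09 and 5.67e-07). With the length and GC trend removed, 6 cofactors were higher and 2 lower in Virma cKO, and 2 higher and 5 lower in libraries labelled Mettl3 cKO (median −0.05), so the opposition rests in part on how that trend is treated.

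**Figure D4:**
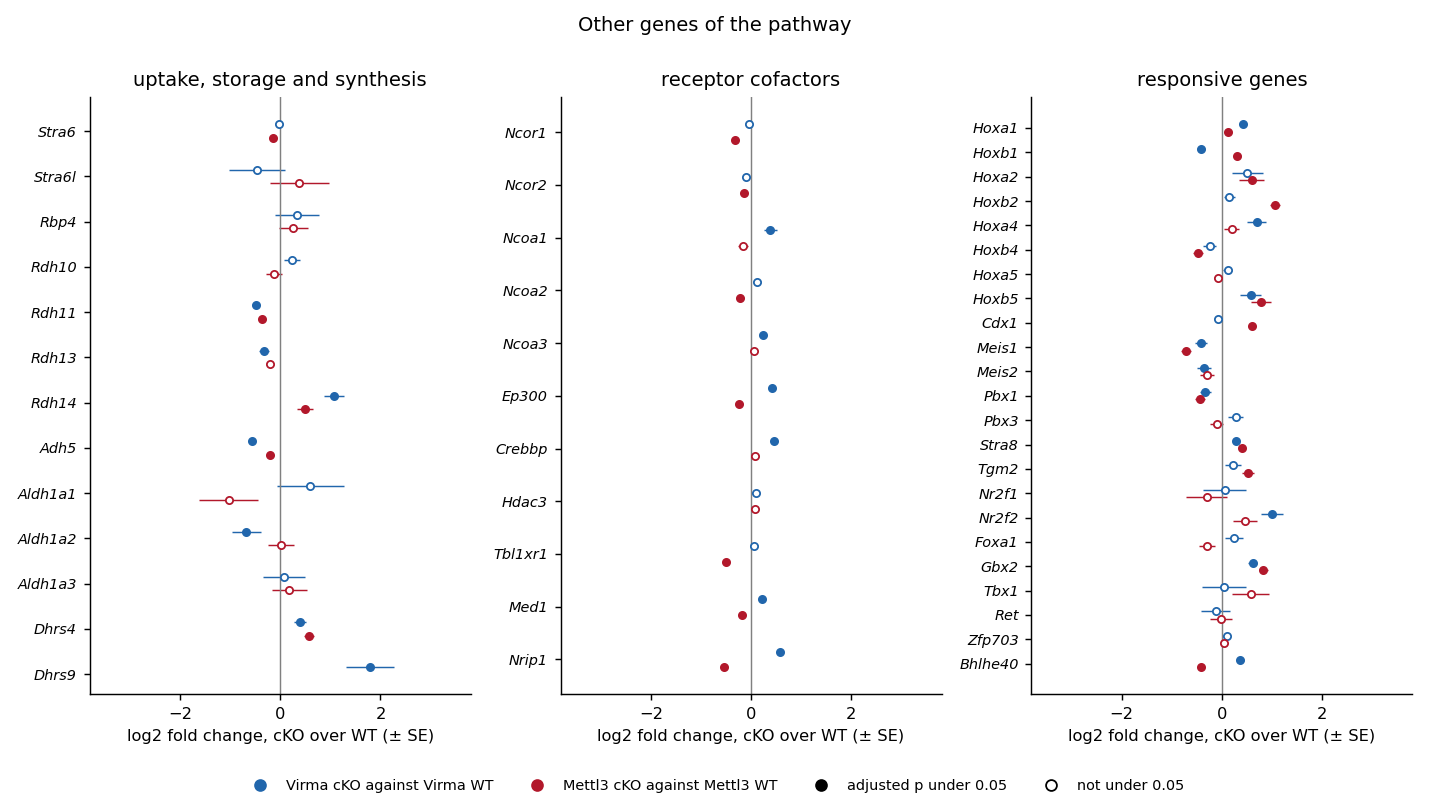
Log2 fold change of cKO over WT with its SE (horizontal axes) for tested genes of uptake, storage and synthesis, the receptor cofactors and the responsive genes, in the Virma comparison (blue) and the Mettl3 comparison (red); filled points have an edgeR adjusted p under 0.05. No Mettl3 point is drawn for Dhrs9, whose Mettl3 WT libraries hold 0 counts. Among the cofactors, called points are right of 0 in blue and left of 0 in red.

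Genes known to respond to the acid were called in both directions, at shares near those of all tested genes. Of 26 listed, 24 were tested; 7 were higher and 5 lower in Virma cKO (median 0.13), which is 50%, beside 52.3% of all tested genes. In libraries labelled Mettl3 cKO 9 were higher and 5 lower (median 0.08), which is 58.3%, beside 55.1% of all tested genes. Scaled by total count the Virma split was 11 higher and 2 lower. Nr2f2, an orphan nuclear receptor, rose in Virma cKO (by 1 on the log2 scale, edgeR adjusted p = 0.000615), and so did Hoxa4 (0.69 ± 0.19, 0.00337), which did not pass without Virma WT replicate 1 (0.55, adjusted p = 0.0658).

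Gbx2, a hindbrain boundary factor also expressed in stem cells, was higher in both lines: 68.5 and 67.8 CPM in Virma cKO, against 42 and 47.4 CPM in Virma WT (0.61 ± 0.09, edgeR adjusted p = 1.89e-06). It was at 38.5 and 35.5 CPM in libraries labelled Mettl3 cKO, against 22.3 and 19.6 CPM in Mettl3 WT (0.82 ± 0.09, edgeR adjusted p = 2.38e-08). Hoxb2, a patterning gene of the hindbrain, was at 24.9 and 27.5 CPM in libraries labelled Mettl3 cKO, against 11.8 and 13.5 CPM in Mettl3 WT (1.05 ± 0.10, edgeR adjusted p = 5.05e-09). In the Virma line it was at 28.6 and 29.8 CPM in Virma cKO, against 25.1 and 27.3 CPM in Virma WT (0.15 ± 0.11, edgeR adjusted p = 0.24), and the difference of the effects was −0.89 ± 0.15 (3.15e-05). Hoxb5 rose by 0.78 ± 0.20 and Meis1 fell by 0.71 ± 0.10 on the log2 scale in libraries labelled Mettl3 cKO (edgeR adjusted p = 0.00249 and 1.16e-06). With Virma WT as control, the libraries labelled Mettl3 cKO had less Gbx2 (−0.27, edgeR adjusted p = 0.00367), so its direction turned. Under that control the calls of Hoxb2 (0.00, adjusted p = 0.991) and Hoxb5 (−0.18, adjusted p = 0.395) were lost.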

How the data were processed

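Per its label, the table deposited by the authors holds raw counts per gene symbol for 8 libraries. The libraries were made from total RNA with SMARTer stranded and VAHTS kits. The sources used here do not give the kit of each library, the gene annotation or the strand setting. The stepped Mettl3 WT counts given above are unlike plain read counts, so the table may have been scaled before deposit. That was not tested. All tests took the counts as unscaled, and their p-values would be affected by such scaling. Per the submitters' processing notes they used mm39 with STAR 2.7.11b, Subread, DESeq2, FastQC 0.12.1 and Trim Galore. Samples were grouped by title.

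Counts were tested with edgeR 4.0.16 in R 4.3.3: quasi-likelihood, TMM, filterByExpr over the 8 libraries, 4 groups in 1 fit, Benjamini-Hochberg adjustment over 14229 genes, threshold 0.05. By a chi-square for unscaled counts, the Virma cKO pair was within sampling noise over all genes. It was not in 505 deep ones that sum to 10000 or more in the pair (3.46 for each degree of freedom). The pair entered as its rounded mean, and its spread is taken to be that of the other groups. The same chi-square was 2.84 over all genes in Mettl3 WT, and counting the pair as 1 sample rests on the counts being unscaled. SE is the log2 fold change divided by the square root of F. Contrasts were cKO against WT in each line, their difference, and WT against WT. CPM use TMM factors of 8 libraries. Exon lengths and overlaps are those of GENCODE M21 (GRCm38, not the authors' build), without its coordinates. The scripts were checked on simulated counts.

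The 9 genes, the lists of other pathway genes and of cell type markers, and the rule for names were chosen with earlier results of these data known. The rule takes the 9 genes, Mettl3 and Virma, Aldh1a2, Rdh10, Rxrb and Fabp5, per list and cKO comparison up to 4 called genes with the largest change and a mean log2 CPM from 1 upward, and up to 2 genes of a marker list; Top2b, Cyp26c1, Rxrg, Dhrs9 and S100a4 were named after their values were seen. The nearest genes are the 3 with the smallest root mean square difference among annotated genes whose mean log2 CPM reaches 2. Prame was not analysed here, and some genes the rule names are not reported here. Other settings tried were total count scaling, DESeq2 1.42.0 or only its size factors, a stricter adjusted p (0.01), no filter, a filter on 1 CPM in a group, 8 separate libraries, both Virma pairs as 1 sample each, each line alone, a replicate block, a loess trend with length and GC content removed, Virma WT as control for Mettl3 cKO, mitochondrial, ribosomal protein and histone genes removed, and each library left out.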

Additional observations from a re-analysis of the deposited data

Results flagged for a closer look

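The cKO against WT differences of the 2 lines were unequal for 4 of the 9 genes by the contrast of Virma cKO against Virma WT minus Mettl3 cKO against Mettl3 WT (edgeR's quasi-likelihood test, Benjamini-Hochberg adjusted), beside 39.1% of all tested genes. Cyp26b1 differed by 1.35 on the log2 scale (adjusted p = 5.6e-06), being higher in Virma cKO and lower in libraries labelled Mettl3 cKO. Cyp26a1 differed by −0.92 (adjusted p = 5.33e-10), with the deeper fall in the Virma line. Rarg differed by −0.31 (adjusted p = 0.00151) and Crabp1 by 0.36 (adjusted p = 0.0259). The WT groups of the 2 lines themselves differed in all 4 of these genes, Rarg not with the length and GC trend removed.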

How the results depend on the processing

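In the Virma comparison the 6 genes called kept their direction and their call under all 20 alternatives (Cyp26a1 −1.65 to −1.50, Crabp1 0.94 to 1.09). In the Mettl3 comparison Rxra, Crabp1 and Crabp2 did so under all 21, and Cyp26a1 and Cyp26b1 under all except Virma WT as control, where they were 0.84 and 0.43. The difference of the effects was called for 7 of the 9 genes with 8 separate libraries and for 7 with a replicate block on 8 separate libraries, against 4; Rara, Rarb and Dhrs3 were added. Over all tested genes the calls rose under the same settings to 47.6% and 48.2%, against 39.1%. The labels do not say whether replicate numbers pair the libraries. Same-numbered deviations over all tested genes correlated at −0.00838 to 0.0193. This does not show the libraries to be unpaired, since counting noise can hide a shared effect. The block gave the Virma comparison 6 and the Mettl3 comparison 9 called genes. DESeq2 called 3593 genes for the difference, against 5569, and 4493 for Virma WT against Mettl3 WT, against 6773. Total count scaling moved the median of all genes in the Virma comparison to 0.15 and the share of calls that were higher to 65.4%, against 50% (difference of the effects 60.3%, against 45.8%). Values near 0 that changed sign without a call were Rarg in the Virma comparison under total count scaling (0.10) and Rarb there, from −0.02 without Virma WT replicate 2 to 0.16 without replicate 1. For the difference of effects they were Rxra, from −0.20 to 0.01 as single libraries were left out, and Crabp2, from −0.05 to 0.03 likewise, and also under total count scaling (0.09) and with the length and GC trend removed (0.15). Crabp2 between the WT groups was 0.04 with that trend removed. With that trend removed 6 genes were called in the Mettl3 comparison, against 9 (all tested genes 50.7%, against 55.1%). Leaving out 1 library at a time, the calls for the difference of the effects ranged from 3 to 6 of the 9 genes, and from 30.9% to 46.8% of all tested genes. The causes were not tested. Rarb and Cyp26b1, at 7.58 to 21.2 CPM, rest on the fewest counts and have the widest intervals.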
